A study of Homo sapiens with 6 samples.

Results

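TXNIP and its arrestin domain relatives ARRDC1 to ARRDC4, together with MLXIP, the gene of the transcription factor MondoA, were followed in the breast cancer line MDA-MB-231, which is established and human in origin and has neither the estrogen nor the progesterone receptor. The 6 genes were picked out by their symbols from the 27451 gene rows of the deposited table. They were chosen by a rule that already used their values in H182 and DMSO, so the member values below are a description with no test. RNA was sequenced from 3 samples given DMSO, the vehicle, and 3 given H182, both at 2 h. H182 was given at 2 µM, and the series title places it among azetidine-based inhibitors of STAT3. The labels do not say whether replicates of a group came from separate cultures, so the spread between them may be technical. Values were TPM, a transcript's share of its library after division by transcript length, scaled to a fixed total, so levels can be compared between genes.

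Alpha-arrestins are adaptor proteins that bring ubiquitin ligases of the NEDD4 family to receptors and transporters at the cell surface. TXNIP, the best known of them, also binds thioredoxin, and TXNIP and ARRDC4 lower glucose uptake. Transcription of TXNIP and ARRDC4 is driven by MondoA with its partner MLX when glucose phosphates accumulate, through paired E-box-like sites called carbohydrate response elements. ARRDC3 is studied in breast cancer, where low levels have been linked to aggressive tumours.

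Between DMSO and H182 the members went separate ways. ARRDC3 rose 8.13-fold and ARRDC2 1.54-fold in mean TPM, TXNIP fell by 21.0%, and ARRDC1, ARRDC4 and MLXIP had overlapping groups. All 6 passed the filter of a mean of at least 1 TPM. By limma, with p-values adjusted after Benjamini-Hochberg across the 12294 genes tested, 3 of the 6 passed the threshold of 0.05, where 24.0% of all tested genes did. The groups did not overlap in the same 3 members, and in 41.4% of all tested genes. Nothing is read from these counts, since the choice of members used the same comparison.

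The promoters of TXNIP, ARRDC4 and ARRDC3 are shown because the first pair is known for sharing one activator, while ARRDC3 had the largest change. The sequences are from RefSeq on GRCh38.p14, 5′ to 3′ on the strand of the gene. Each stops at the base before the gene as GENCODE 29 draws it, so that the bases next to the RefSeq start are not shown, 21 in TXNIP, 5 in ARRDC4 and 42 in ARRDC3. Capitals mark the matches, on either strand, to a carbohydrate response element, an E-box, an NF-Y box or a FOXO site.

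TXNIP promoter, minus strand: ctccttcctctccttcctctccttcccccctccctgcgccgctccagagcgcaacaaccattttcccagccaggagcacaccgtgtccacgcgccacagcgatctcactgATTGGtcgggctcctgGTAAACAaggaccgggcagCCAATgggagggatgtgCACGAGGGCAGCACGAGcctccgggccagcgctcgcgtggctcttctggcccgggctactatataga

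ARRDC4 promoter, plus strand: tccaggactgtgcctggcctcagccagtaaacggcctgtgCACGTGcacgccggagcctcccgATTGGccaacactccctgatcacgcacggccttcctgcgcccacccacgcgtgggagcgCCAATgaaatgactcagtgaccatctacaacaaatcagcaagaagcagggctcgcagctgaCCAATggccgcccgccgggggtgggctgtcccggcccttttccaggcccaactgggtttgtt

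ARRDC3 promoter, minus strand: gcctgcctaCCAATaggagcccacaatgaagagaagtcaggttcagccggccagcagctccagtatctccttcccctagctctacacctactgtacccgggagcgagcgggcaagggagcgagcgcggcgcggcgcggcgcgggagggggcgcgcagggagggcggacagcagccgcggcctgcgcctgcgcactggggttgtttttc

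The shown stretch of TXNIP lies at chr1:145996601-145996829, that of ARRDC4 at chr15:97960453-97960697 and that of ARRDC3 at chr5:91383360-91383567. Motifs were searched in the full 250 bases before each RefSeq start. Positions count bases upstream of that start, not from the end of the shown sequence. The carbohydrate response element was searched as CACGNG followed, after 5 bases of any kind, by CNCGNG. TXNIP held 1 match, with its first base 88 bases upstream, and no other member held one. Of 35116 promoter windows of this length, 0.424% held a match. ARRDC4 held 1 E-box, CACGTG, at 210 bases upstream, which 6.34% of windows held. The NF-Y box, CCAAT, was found 2 times in TXNIP (140 and 105 bases upstream), 3 times in ARRDC4 (187, 128 and 67) and 1 time in ARRDC3 (241). It was also found in ARRDC1 (80), in MLXIP (76) and before an inner RefSeq start of ARRDC2 (93), and in 32.0% of windows. The FOXO site, TGTTTAC, lay 124 bases upstream in TXNIP and was found in 2.98% of windows. A second RefSeq start of ARRDC3, inside the gene as GENCODE 29 draws it, had a FOXO site 29 bases upstream and none of the other motifs. The window before a second RefSeq start of TXNIP, also inside the gene, held none of the motifs. Nor did the window before the outer RefSeq start of ARRDC2. No member window held a heat shock element, 3 alternating GAA and TTC units set 2 bases apart, which 0.441% of windows held. A match is a string of letters and does not show binding, and no match speaks only of this window and of these fixed patterns. Looser forms of the carbohydrate response element were not searched.

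TXNIP (ENSG00000265972.5, chromosome 1, 145992435 to 145996600, minus strand, 8 exons) was the most abundant member in every library. It stood at 171.18, 174.33 and 170.77 TPM in the DMSO libraries and at 132.11, 139.13 and 136.6 TPM in the H182 libraries. Every H182 library lay below every DMSO library, and the groups were far apart for their spread. The mean went from 172 ± 1.95 to 136 ± 3.56 TPM (SD, n = 3 each). The log2 change, taken on log2(TPM + 1) throughout, was -0.34 (SE 0.039). TPM is a share of a library, so a large rise of some transcripts lowers all others, and the median tested gene changed by -0.09. TXNIP changed by -0.24 relative to that median, and by -0.24 with median-of-ratios scaling of the libraries. Among the tested genes 1104 had a larger fall. In bulk RNA, fewer cells with a transcript and less of it per cell cannot be told apart.

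ARRDC4 (ENSG00000140450.8, chromosome 15, 97960698 to 97973838, plus strand, 8 exons), which shares with TXNIP the activator and the effect on glucose uptake, was the least abundant member. Its TPM was 3.11, 3.38 and 3.09 in DMSO and 2.89, 3.27 and 3.05 in H182. The groups overlapped, with 1 H182 library above 2 of the DMSO libraries. The means were 3.19 ± 0.162 and 3.07 ± 0.191 TPM (SD, n = 3 each). The log2 change was -0.043 (SE 0.121) and turned to 0.035 with median-of-ratios scaling, so no direction can be given. With an SE of that size, a change of ARRDC4 as small as that of TXNIP could be missed. The 1 added to TPM also shrinks a log2 change more at the level of ARRDC4 than at that of TXNIP. With 0.1 added in place of 1, the log2 change of ARRDC4 was -0.056 (SE 0.157). The fit draws each SE toward that of genes of like level, and without this mean-variance trend it was 0.060. Inside each library, ARRDC4 per TXNIP, a ratio of TPM that no scaling of libraries alters, was 0.0182, 0.0194 and 0.0181 in DMSO and 0.0219, 0.0235 and 0.0223 in H182. These ratios did not overlap between groups and were higher in H182, where TXNIP was lower.

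ARRDC3 (ENSG00000113369.8, chromosome 5, 91368724 to 91383359, minus strand, 8 exons), an adaptor reported to direct receptors to ubiquitylation and endosomes, had the largest change of the members. It stood at 6.32, 8.14 and 8.6 TPM in DMSO and at 56.82, 68.6 and 62.03 TPM in H182. The lowest H182 library was several times above the highest DMSO library. The mean went from 7.69 ± 1.21 to 62.5 ± 5.90 TPM (SD, n = 3 each), with a log2 change of 2.88 (SE 0.112). It ranked 30 among the 12294 tested genes by the size of the rise. In DMSO its mean was above that of 24.9% of tested genes, and in H182 above that of 76.3%. The RNA gene ARRDC3-AS1 overlaps it on the opposite strand and was at 0.39 TPM or less in all 6 libraries. With the strand setting unknown, reads of ARRDC3 and ARRDC3-AS1 cannot be told apart where the genes overlap.

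ARRDC2 (ENSG00000105643.9, chromosome 19, 18001132 to 18014102, plus strand, 8 exons), a less studied adaptor of the same fold, also rose. It was at 21.42, 23.8 and 21.62 TPM in DMSO and at 36.61, 32.32 and 33.81 TPM in H182. All H182 libraries lay above all DMSO libraries. The mean went from 22.3 ± 1.32 to 34.2 ± 2.18 TPM (SD, n = 3 each), and the log2 change was 0.60 (SE 0.073).

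ARRDC1 (ENSG00000197070.13, chromosome 9, 137605654 to 137615360, plus strand, 8 exons) recruits the budding machinery to the plasma membrane and drives release of small vesicles. Its TPM was 31.22, 27.66 and 28.74 in DMSO and 28.14, 34.92 and 31.47 in H182. The groups overlapped, and H182 replicate 2 was the highest library. The means were 29.2 ± 1.83 and 31.5 ± 3.39 TPM (SD, n = 3 each), with a log2 change of 0.10 (SE 0.086). Without H182 replicate 2 the change was 0.028. ARRDC1-AS1 overlaps it on the opposite strand, and with the strand setting unknown their reads cannot be told apart. The longest coding transcript of each of the 5 arrestin genes has 8 exons in GENCODE 29, a structure they share beside their fold.

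MLXIP (ENSG00000175727.13, chromosome 12, 122078722 to 122147347, plus strand, 17 exons) encodes the activator itself. It was at 27.7, 29.28 and 29.9 TPM in DMSO and at 27.69, 26.42 and 29.15 TPM in H182. The groups overlapped. The means were 28.96 ± 1.13 and 27.8 ± 1.37 TPM (SD, n = 3 each). The log2 change was -0.060 (SE 0.065) and became 0.040 with median-of-ratios scaling and 0.015 with quantile normalization. TXNIP per MLXIP within a library was 6.18, 5.95 and 5.71 in DMSO and 4.77, 5.27 and 4.69 in H182, without overlap. The mRNA level of MLXIP says nothing of where the protein is in the cell or of its activity.

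**Figure D1:**
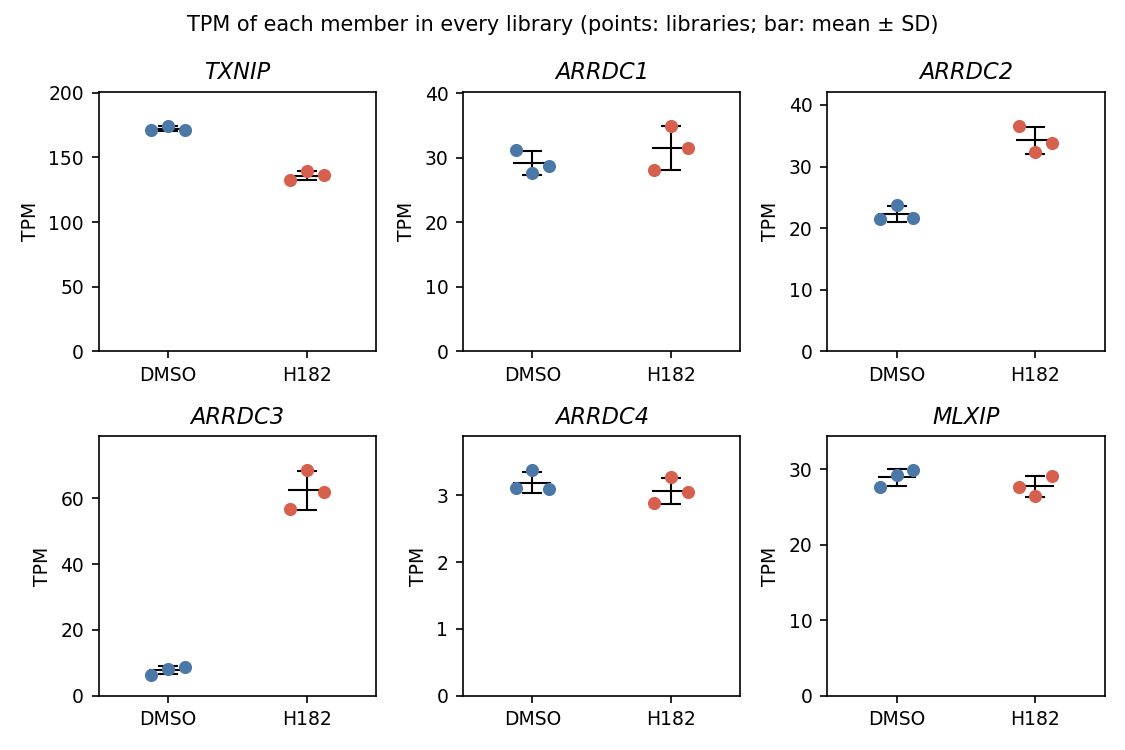
TPM (vertical axes, each from 0) of the 6 members in the DMSO and H182 libraries, with points for libraries and bars for mean ± SD (n = 3). ARRDC3 moved from 6.32 to 8.6 TPM in DMSO to 56.82 to 68.6 TPM in H182, TXNIP was lower in all H182 libraries, and ARRDC1, ARRDC4 and MLXIP overlapped.

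The order of levels within the set differed between the groups. In DMSO, TXNIP was followed by ARRDC1 and MLXIP, whose means of 29.2 and 28.96 TPM lay within their spread, then by ARRDC2, ARRDC3 and ARRDC4. In H182, TXNIP was followed by ARRDC3, which in DMSO had ranked 5 of the 6. ARRDC2 and ARRDC1 came next with overlapping ranges, then MLXIP, whose range overlapped that of ARRDC1, and last ARRDC4.

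The 5 arrestin genes together held 234 ± 2.48 TPM in DMSO and 267 ± 10.8 TPM in H182. TXNIP made up 73.4 ± 0.0569% of that sum in DMSO and 50.9 ± 0.782% in H182. ARRDC3 made up 3.28 ± 0.510% in DMSO and 23.3 ± 1.26% in H182. ARRDC2 went from 9.50 ± 0.462% to 12.9 ± 1.34%, and ARRDC1 was at 12.5 ± 0.871% and 11.8 ± 0.791% (SD, n = 3 each). ARRDC3 per TXNIP within a library was 0.0369, 0.0467 and 0.0504 in DMSO and 0.430, 0.493 and 0.454 in H182, a 10.3-fold ratio of the means.

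**Figure D2:**
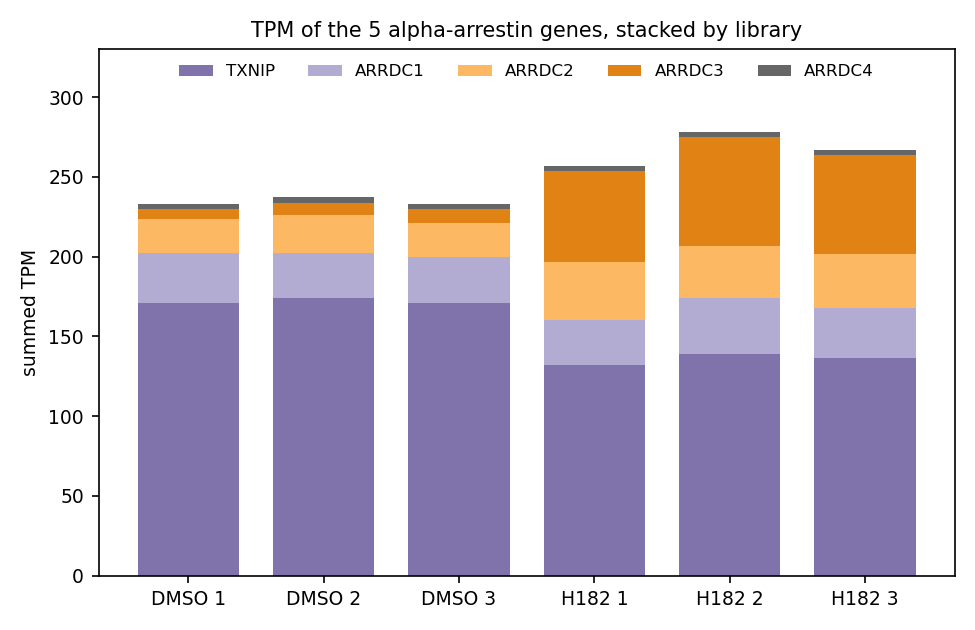
Summed TPM (vertical axis) of TXNIP and ARRDC1 to ARRDC4 in each of the 6 libraries (horizontal axis), stacked by gene. TXNIP took 73.4% of the sum on average in DMSO and 50.9% in H182, and the ARRDC3 segment grew from 3.28% to 23.3%.

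**Figure D3:**
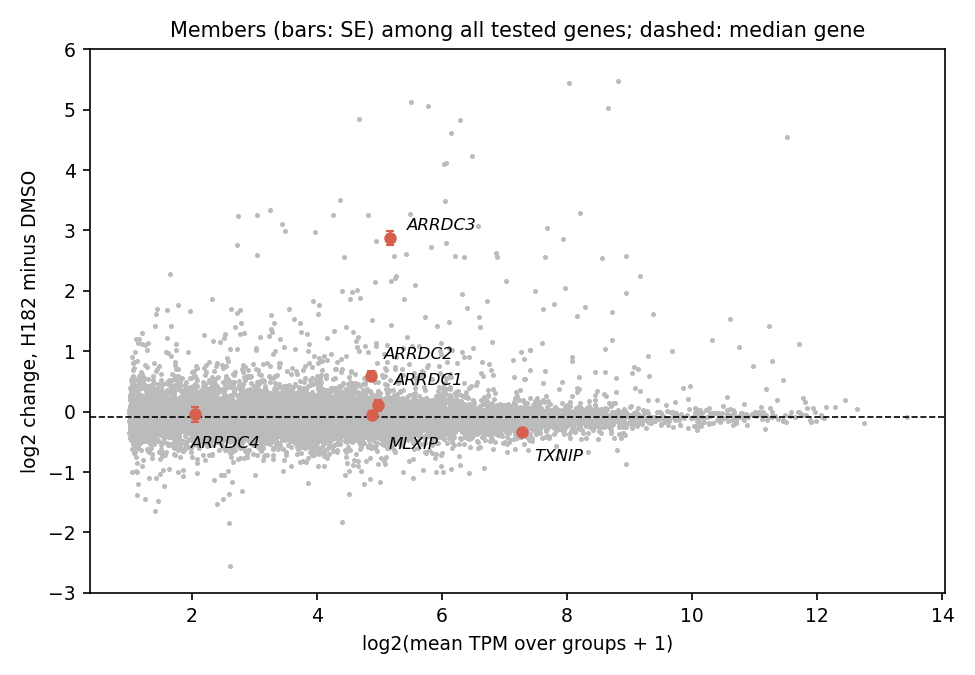
Log2 change, H182 minus DMSO (vertical axis), against log2 of the mean TPM + 1 (horizontal axis) for the tested genes (grey) and the members (red, bars for SE); the dashed line is the median gene at -0.09. ARRDC3 stands among the larger rises at 2.88 and TXNIP below the line at -0.34; 3 other genes lie beyond the plotted range of -3 to 6.

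Genes with the most similar profile were sought over the 6 libraries, by the root mean square difference of log2(TPM + 1) after each gene's own mean was taken off. Nearest to ARRDC3 were IER5L, a relative of an immediate early gene (difference 0.0913), and IL6, a cytokine (0.107). IER5L was at 5.86, 6.36 and 7.62 TPM in DMSO and 50.47, 53.52 and 54.68 TPM in H182. Nearest to ARRDC2 were PTP4A1, a phosphatase (0.0450), and RCAN1, an inhibitor of calcineurin (0.0455). Nearest to TXNIP were CAV1, the coat protein of caveolae (0.00819), NFIB (0.0125), HNRNPDL (0.0144), VCL (0.0157), TXLNA (0.0160) and CDC123 (0.0166). For ARRDC1 they were PELO (0.0370) and HSPBAP1 (0.0413), for ARRDC4 MAPK9 (0.0119) and DFFA (0.0162), and for MLXIP PCGF6 (0.0132) and CHPF2 (0.0178). No member came up among these nearest genes of another, and likeness over 6 libraries in 2 groups mostly reflects the size of the difference between the groups.

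The lists of genes around the family follow by role, with members counted as called by the same limma fit. Over all tested genes, 5.30% were called higher and 18.7% lower in TPM, and 7.91% higher and 6.79% lower with median-of-ratios scaling. At an unadjusted p under 0.05, 7.74% of tested genes were higher and 29.7% lower in TPM, and 14.7% higher and 13.7% lower with that scaling. The lists were chosen with earlier results of these data known, so their counts beside these shares are a description. No set test was made.

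Partners of MondoA and the MAX network, the transcription factors that share E-boxes with it, had 2 of 9 tested members higher and 2 lower (3 and 0 with median-of-ratios scaling), with a median log2 change of -0.08. By limma at an unadjusted p under 0.05, 2 were higher and 2 lower in TPM, and 3 higher and 0 lower with that scaling. MXD1, a repressor partner of MAX, rose from 7.43 ± 0.536 to 32.8 ± 3.94 TPM (log2 change 2.00, limma adjusted p = 7.45e-07). MYC rose from 256 ± 3.70 to 581 ± 11.5 TPM (log2 change 1.18, limma adjusted p = 7.93e-09). MXD3 changed by -0.24 and MLX, the obligate partner of MondoA, by -0.16, and both calls were lost with median-of-ratios scaling. When 1 library was left out, the call of MXD3 held only without DMSO replicate 1 or H182 replicate 3, and that of MLX only without H182 replicate 3. The mean of MLX, named after its values were seen, was 75.8 ± 0.750 TPM with DMSO and 67.6 ± 1.11 TPM with H182. MLXIPL, the gene of the related factor ChREBP, was not tested, with 0.06 to 0.48 TPM.

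Of 12 tested genes reported as targets of MondoA or ChREBP in other cells, 4 were higher and 4 lower (4 and 1 with median-of-ratios scaling), so they did not move one way, and the median was -0.02. RGS16, a brake on G protein signalling, rose from 0.457 ± 0.186 to 2.87 ± 0.225 TPM, 6.28-fold in mean TPM. Its log2 change was 1.42, since the 1 added to TPM shrinks changes at so low a level. Its DMSO mean was under the 1 TPM of the filter, so it was tested only through its H182 level, and at a mean of at least 5 TPM 3 members of the list were higher. BHLHE40, a transcriptional repressor, rose from 11.1 ± 0.314 to 30.9 ± 1.37 TPM, and PFKFB3, which makes the activator of phosphofructokinase, from 42.0 ± 0.519 to 82.1 ± 4.35 TPM. KLF10, named after its values were seen, fell from 31.2 ± 0.714 to 17.3 ± 1.12 TPM (log2 change -0.82) and passed under every scaling. Each of these genes has other known regulators.

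Genes of glucose uptake and hexose phosphates had 2 of 16 tested members higher and 5 lower, with a median of -0.07. With median-of-ratios scaling 2 were higher and 0 lower, and at an unadjusted p under 0.05 by limma 2 were higher and 4 lower. The count of lower calls in TPM was 3 when DMSO replicate 2 or 3, or replicate 1 of H182, was taken out. SLC2A3, the high-affinity glucose transporter GLUT3, was at 10.21, 10.36 and 10.02 TPM in DMSO and 47.55, 46.76 and 51.7 TPM in H182. It rose 4.77-fold (log2 change 2.15, SE 0.068, limma adjusted p = 1.75e-08). SLC2A1, the gene of GLUT1, the transporter that TXNIP binds, was named after its values were seen. Its mean was 580 ± 6.67 TPM with DMSO and 508 ± 6.80 TPM with H182 (log2 change -0.19), and it was not called with median-of-ratios scaling. HK2, hexokinase, changed by -0.24, likewise lost with that scaling. HK2 and PFKFB3 also stood in the list of reported targets above, and SLC2A1 in the cargo list below, so these counts are not separate.

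The thioredoxin system, whose central protein TXNIP binds, had 3 of 15 tested members higher and 1 lower (4 and 0 with median-of-ratios scaling), with a median of -0.02. By limma at an unadjusted p under 0.05, 4 were higher and 5 lower in TPM, and 6 higher and 0 lower with that scaling. TXNRD1, thioredoxin reductase, rose from 315 ± 7.22 to 383 ± 23.8 TPM (log2 change 0.28, limma adjusted p = 0.00287). SRXN1, sulfiredoxin, rose from 63.6 ± 2.99 to 75.7 ± 2.18 TPM. PRDX3 of mitochondria changed by -0.17, was not called with median-of-ratios scaling, and lost its call without DMSO replicate 2, H182 replicate 1 or H182 replicate 2. Thioredoxin itself, TXN, named after its values were seen, was at 620 ± 5.68 and 625 ± 28.8 TPM and did not pass (log2 change 0.01).

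The NEDD4 family ligases and their adaptors, which alpha-arrestins recruit, had none of 11 tested members higher and 1 lower, also with median-of-ratios scaling, and a median of -0.09, that of all tested genes. At an unadjusted p under 0.05 none was higher and 3 were lower in TPM, and 1 was lower with that scaling. Without DMSO replicate 1, 2 members were called lower. SMURF2 fell from 190 ± 9.71 to 147 ± 4.37 TPM (log2 change -0.37, limma adjusted p = 0.000616). The ESCRT and budding genes, which act with ARRDC1, had 1 of 20 higher and 2 lower (2 and 0 with median-of-ratios scaling). By limma at an unadjusted p under 0.05, 1 was higher and 5 lower in TPM, and 4 higher and 0 lower with that scaling. VPS37A rose by 0.28 on the log2 scale, while VPS4A (-0.23) and VPS4B (-0.23) lost their calls with median-of-ratios scaling. VPS4A also lost its call without DMSO replicate 1 or 3 or H182 replicate 2, and VPS4B without any 1 of the DMSO libraries or H182 replicate 2. Among the arrestin-fold relatives, ARRB1, a beta-arrestin, changed by -0.46 and was the sole member of 6 tested to be called; the call was lost with median-of-ratios scaling and held only without DMSO replicate 1 when 1 library was left out. In this list none was higher at an unadjusted p under 0.05, and 2 were lower in TPM and 1 with that scaling. ARRDC5 was listed at 0 in all libraries.

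Receptors and transporters reported as cargo of alpha-arrestins had 1 of 7 tested members higher and 4 lower (1 and 3 with median-of-ratios scaling), with a median of -0.19. SLC11A2, an iron transporter, fell from 17.0 ± 1.71 to 12.1 ± 0.909 TPM (log2 change -0.46, limma adjusted p = 0.00817). F2R, a thrombin receptor, fell from 43.4 ± 0.936 to 34.2 ± 1.39 TPM. NOTCH1 rose from 13.9 ± 0.277 to 18.5 ± 2.31 TPM (log2 change 0.38), a call lost without DMSO replicate 1 (limma adjusted p = 0.0517). The kinases that act on TXNIP and glucose uptake, AMPK subunits with STK11 and kinases of the insulin pathway, had none of 12 higher and 3 lower, PRKAB1 (-0.31) and STK11 (-0.26) among them. None of the 3 calls was kept with median-of-ratios scaling. At an unadjusted p under 0.05, limma had none higher and 5 lower in TPM, and none higher and 2 lower with that scaling. Without DMSO replicate 2 or 3, 1 member was called lower. When 1 library was left out, PRKAB1 passed only without replicate 1 of either group.

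**Figure D4:**
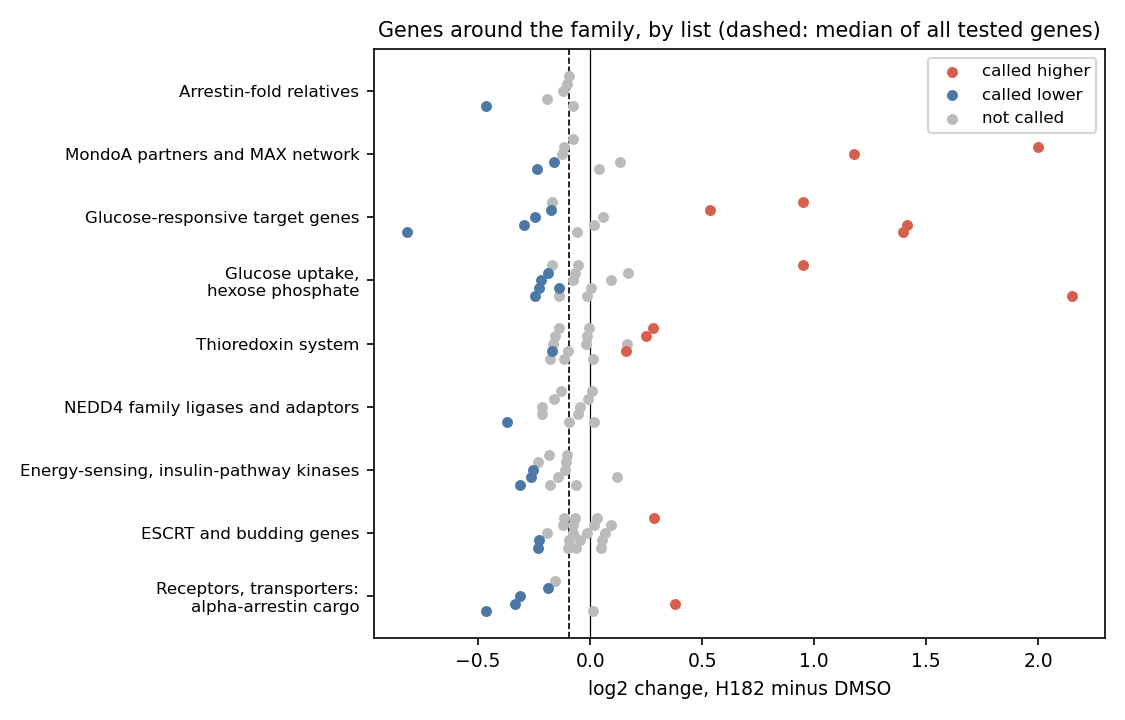
Log2 change, H182 minus DMSO (horizontal axis), of each tested gene in the 9 lists (rows), coloured by call in TPM; the dashed line is the median of all tested genes at -0.09. Most genes of each list lie near the dashed line, and the calls far to the right are SLC2A3 at 2.15, MXD1 at 2.00, RGS16 at 1.42, BHLHE40 at 1.40 and MYC at 1.18.

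The libraries carried the markers of the line. VIM, CD44, CAV1 and AXL were at 317 to 4051 TPM, and ESR1 and PGR were at 0.06 TPM or less. Of the other luminal markers, GATA3 was at 6.47 to 11.27 TPM and FOXA1 at 0.19 to 1.83 TPM, and the list with both receptors summed to 9.9 to 12.2 TPM in DMSO and 7.25 to 9.16 TPM in H182. Summed markers of blood cells were at 1.24 to 2.60 TPM, of endothelium at 0.06 to 0.51 TPM and of fibroblasts at 6.97 to 8.67 TPM. The 4 line markers, CAV1 included, summed to 6025 to 6162 TPM in DMSO and 5094 to 5427 TPM in H182, so they were lower in H182 as TXNIP was. What part this has in the values of TXNIP was not tested.

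**Figure D5:**
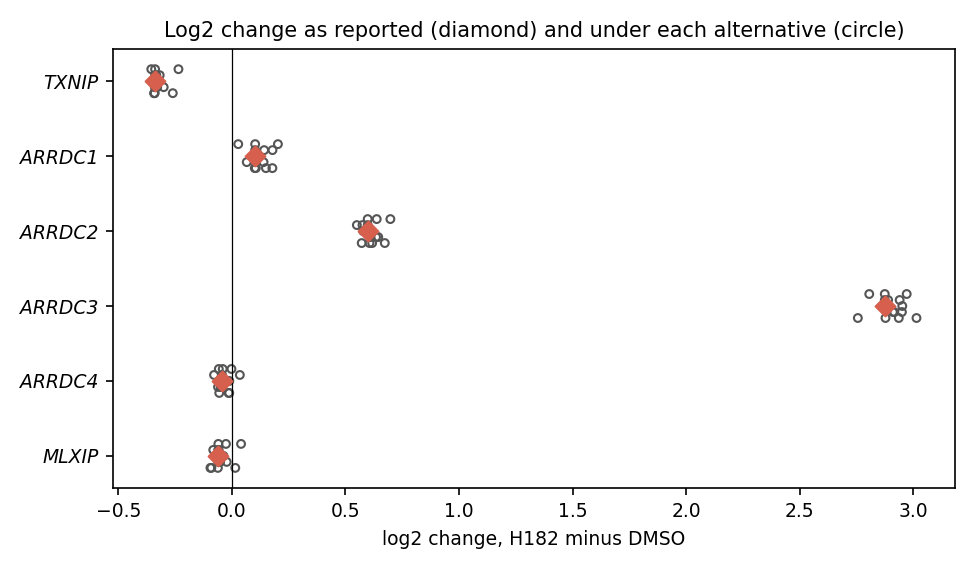
Log2 change, H182 minus DMSO (horizontal axis), of each member (rows) as reported (diamonds) and under the alternatives in processing (circles). ARRDC3 stayed between 2.76 and 3.01, ARRDC2 between 0.55 and 0.70 and TXNIP between -0.35 and -0.24, while ARRDC4 and MLXIP fell on both sides of 0.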

How the data were processed

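The submitters' processing notes name the tools RSEM 1.2.25 and STAR 2.5.0 with the build GRCh38, and per the labels' protocols the kit was stranded, with poly-A selection. For annotation, trimming and strand setting, nothing was given in the sources used here. Here the authors deposited TPM per gene and library, rounded to 2 decimals, so depth is unknown and no counting interval is given. Of 27567 rows, 92 spike-in rows, all at 0, and 24 second rows of genes on X and Y were left out.

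Values were analysed as log2(TPM + 1) for the 12294 genes averaging 1 TPM or more, with limma 3.58.1 in R 4.3.3 (mean-variance trend, two-sided, Benjamini-Hochberg, threshold 0.05), checked first on simulated data. Members and lists were chosen with earlier results of these data known. Genes named from a list are the 3 largest changes among those that passed; others are said to be named after their values were seen, and some are not reported here. Coordinates and exons are from GENCODE 29 (GRCh38), and promoters from RefSeq, which held all 6 members. Replicate numbers did not pair the libraries. Alternatives were other pseudocounts, filters, scalings, variance models, a replicate block and leaving out each library. Figures were drawn with matplotlib 3.10.9.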

Additional observations from a re-analysis of the deposited data

How the results depend on the processing

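TXNIP, ARRDC2 and ARRDC3 kept their direction under all 16 alternatives. ARRDC1 also kept its direction, at 0.028 to 0.20, but its groups overlapped and it passed the threshold under none of them. The log2 change of ARRDC4 was 0.035 with median-of-ratios scaling, and that of MLXIP was 0.040 with that scaling and 0.015 with quantile normalization, on the other side of 0 from the reported values. ARRDC4 had no value at a mean of at least 5 TPM. Of all tested genes 2304 were called lower in TPM, but 835 with median-of-ratios scaling, 1261 with quantile normalization and 1498 with totals taken without HSPA1A, HSPA1B and DNAJB1. Leaving out 1 library gave 1407 to 2205 genes lower, with 1407 without DMSO replicate 2 and 1486 without H182 replicate 2. Genes called higher went from 651 to 972 with median-of-ratios scaling. With the replicate block, 625 genes were higher and 2059 lower, and the deviations of same-numbered libraries correlated at -0.0130, 0.0025 and -0.0359, so the numbers were not taken as pairs. Among 18 counts of list members, 8 moved by over 1.5 times with median-of-ratios scaling and none with another pseudocount. Without depth, no counting error can be given for ARRDC4 near 3 TPM. Its SE of 0.121 rests on its own 3 libraries a group and on the variance of genes of like level. Without the mean-variance trend that SE was 0.060.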
